A study of Mus musculus with 6 samples.

Results

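The genes described here are 44 genes of DNA replication and of the G1/S step of the cell cycle, taken as a named list of symbols: the MCM2-7 helicase, the factors that load and start it, polymerases, sliding clamp and clamp loader, Okazaki fragment enzymes, nucleotide synthesis, chromatin assembly, and E2F and cyclin E. All 44 matched 1 gene each among the 22040 genes of the table and lie on 16 chromosomes. They were measured by RNA sequencing of white adipose tissue from mice given ginsenoside Rb1, a triterpene saponin of ginseng, by intraperitoneal injection at 14 mg/kg per day (Rb1, 3 samples) and from mice given intraperitoneal saline (CTR, 3 samples). The series title links the work to the anti-obesity action of the compound, and the comparison made here asks whether replication transcripts of the tissue differ with it. The labels name neither strain, sex, age, diet, fat depot nor treatment duration, and nothing in them says that the 3 samples of a group are 3 separate mice.

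A cell that enters S phase first loads the ring-shaped MCM2-7 helicase onto origins with the help of ORC, Cdc6 and Cdt1. The helicase is then switched on with Cdc45 and GINS, and polymerases follow with the clamp PCNA. Many of the genes involved are targets of E2F transcription factors, which are held in check by retinoblastoma family proteins until cyclin-dependent kinases, cyclin E kinase among them, phosphorylate those proteins. In adult fat, mature adipocytes are largely post-mitotic, and replicating cells are found mainly among immune, progenitor and vascular cells, so these transcripts are a minor part of the tissue's RNA. The compound's name is also the symbol of the retinoblastoma gene; below, Rb1 alone means the treated samples.

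Total counts were 20226859, 15440339 and 24501446 in Rb1 replicates 1, 2 and 3, and 19125095, 23509621 and 20179431 in CTR replicates 1, 2 and 3. The adipocyte markers expected of the labelled tissue were abundant: 7 genes summed to 20955, 16524 and 21977 scaled CPM in Rb1 samples and 19242, 17182 and 19480 in CTR samples. Scaled CPM is the count relative to its library total (CPM), after TMM scaling between libraries. CTR replicate 2 stood apart through skeletal muscle genes: 10 of them summed to 150, 37.0 and 86.1 scaled CPM in Rb1 replicates 1, 2 and 3, against 312, 26534 and 379 in CTR replicates 1, 2 and 3. Results are therefore given with and without that sample. The muscle sum stayed lower in Rb1 samples without it, at a ratio of means of 0.263. At these depths 3 counts, the most that a count of 0 allows, correspond to 0.122 to 0.194 CPM.

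The sequence feature the genes are best known for can be read in the promoters of some of them. RefSeq promoter windows on GRCm38.p6, from 250 bases before to 50 bases after the annotated start (300 bases), were at hand for 36 of the 44 genes. Exact matches on either strand to TTTGGCGC, TTTCCCGC, TTTCGCGC or TTTGCCGC, letter strings that E2F proteins can bind, were found in 15 of these 36 genes (41.67%), against 704 of all 27025 genes with a window (2.605%). The 6 printed are those with such a match and the smallest p in the comparison of Rb1 with CTR. They are written 5′ to 3′ on the gene's strand, with the matched letters in capitals, so that a match on the opposite strand reads as its complement. The start is the one RefSeq gives, and it differs from the GENCODE M21 gene start for several of them: the windows of Mcm5 and E2f2 lie wholly before the GENCODE gene, those of Mcm6 and Mcm3 reach 9 and 50 bases into it, and those of Uhrf1 and Lig1 lie inside it. They lie at chr8:75109259-75109558 (Mcm5, plus strand), chr17:56304063-56304362 (Uhrf1, plus), chr4:136172024-136172323 (E2f2, plus), chr1:20820263-20820562 (Mcm3, minus), chr7:13278576-13278875 (Lig1, plus) and chr1:128359656-128359955 (Mcm6, minus).
Mcm5: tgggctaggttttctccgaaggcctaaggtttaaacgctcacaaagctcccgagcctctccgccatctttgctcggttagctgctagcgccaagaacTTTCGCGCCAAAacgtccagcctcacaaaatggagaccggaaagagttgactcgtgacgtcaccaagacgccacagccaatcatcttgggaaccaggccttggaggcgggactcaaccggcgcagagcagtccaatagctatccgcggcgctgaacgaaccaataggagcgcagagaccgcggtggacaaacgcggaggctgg
Uhrf1: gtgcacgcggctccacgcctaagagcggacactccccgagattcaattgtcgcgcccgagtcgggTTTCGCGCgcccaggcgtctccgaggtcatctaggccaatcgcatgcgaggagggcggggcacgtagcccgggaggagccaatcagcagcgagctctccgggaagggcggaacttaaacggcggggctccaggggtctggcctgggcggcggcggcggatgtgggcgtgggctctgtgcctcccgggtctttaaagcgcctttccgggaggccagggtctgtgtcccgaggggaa
E2f2: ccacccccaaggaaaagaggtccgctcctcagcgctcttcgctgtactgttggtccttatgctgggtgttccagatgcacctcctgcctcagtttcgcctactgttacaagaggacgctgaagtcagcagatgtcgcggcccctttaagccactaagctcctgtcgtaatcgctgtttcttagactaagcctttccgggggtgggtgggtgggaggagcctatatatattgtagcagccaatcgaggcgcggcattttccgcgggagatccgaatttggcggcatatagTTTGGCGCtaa
Mcm3: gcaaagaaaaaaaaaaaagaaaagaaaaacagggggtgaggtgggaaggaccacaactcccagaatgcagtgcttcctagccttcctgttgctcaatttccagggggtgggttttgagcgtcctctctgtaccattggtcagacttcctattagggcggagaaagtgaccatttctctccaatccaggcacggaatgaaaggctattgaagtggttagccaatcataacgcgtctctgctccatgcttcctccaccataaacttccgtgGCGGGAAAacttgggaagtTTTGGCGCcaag
Lig1: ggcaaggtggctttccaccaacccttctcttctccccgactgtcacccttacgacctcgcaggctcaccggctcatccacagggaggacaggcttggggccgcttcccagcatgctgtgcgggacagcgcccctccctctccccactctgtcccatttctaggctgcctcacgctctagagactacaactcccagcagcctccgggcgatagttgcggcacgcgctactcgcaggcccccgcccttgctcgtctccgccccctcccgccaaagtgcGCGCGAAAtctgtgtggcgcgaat
Mcm6: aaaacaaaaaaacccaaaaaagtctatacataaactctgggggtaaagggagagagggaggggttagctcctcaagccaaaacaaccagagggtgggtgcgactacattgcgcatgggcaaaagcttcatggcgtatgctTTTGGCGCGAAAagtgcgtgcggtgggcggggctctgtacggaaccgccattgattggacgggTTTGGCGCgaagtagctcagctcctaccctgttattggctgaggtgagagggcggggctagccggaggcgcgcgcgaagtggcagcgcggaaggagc

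In the Mcm5 window TTTCGCGC and, on the opposite strand, TTTGGCGC overlap in a single run that begins 153 bases before the start. Mcm6 carries the same pair on the other strand, beginning 110 bases before the start, and a further TTTGGCGC at 47 bases before it. In E2f2, Mcm3 and Lig1 the matches lie after the RefSeq start, though in E2f2 still before the GENCODE gene. Across the 36 genes TTTCGCGC was found in 8, TTTGGCGC in 7, TTTCCCGC in 6 and TTTGCCGC in 0, and some genes hold more than 1 of these strings. CCAAT, the letters of the NF-Y box, was found in 23 of 36 (63.89%), against 41.06% of all genes with a window. The CHR string TTTGAA, known from promoters of mitotic genes, was found in 6 of 36 (16.67%), against 20.23%. These are matches of letters, and nothing in the data measures binding.

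In these libraries transcripts of 12 replication and G1/S genes were lower in Rb1 samples at an unadjusted p under 0.05, and none passed edgeR's test once p-values were adjusted over all genes, while DESeq2 called Rrm2 alone. The lower ones were led by Tk1, Mcm10, Rrm2 and Ccne2, with 39.8%, 47.8%, 48.6% and 49.2% of the CTR level, while Pola1, Rfc1, Rpa1 and E2f1 had log2 fold changes between 0.01 and 0.15 and Mcm7 was higher by 0.28 on the log2 scale without passing the test. The main test was edgeR's quasi-likelihood test with Benjamini-Hochberg adjustment over the 14093 genes tested, which include 43 of the 44; log2 fold changes are Rb1 over CTR with their standard error. By edgeR 0 of the 43 were called lower and 0 higher at an adjusted p under 0.05, against 0% and 0.0071% of all genes. At an unadjusted p under 0.05, 12 of 43 (27.9%) were lower and 0 higher, against 7.54% lower and 4.01% higher among all genes. In 14 of 43 (32.6%) all 3 Rb1 samples lay below all 3 CTR samples and in 1 (2.33%) above them, against 9.74% and 7.73% of all genes. The log2 fold change was negative for 36 of 43 (83.7%), against 48.7% of all genes, and its median was -0.23, against 0.01 over all genes tested.

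DESeq2 called 1 of the 43 lower, Rrm2 (Benjamini-Hochberg adjusted p = 0.030), against 2.18% of all genes, and 0 higher, against 0.589%. Leaving out any 1 sample other than CTR replicate 3 ended that call, with DESeq2 adjusted p of Rrm2 between 0.0658 and 0.266; without CTR replicate 3 it was 0.0023. Without CTR replicate 2 DESeq2 called 0 of the 43, against 1.13% of all genes lower and 0.246% higher. In limma-voom 0 of the 43 were called in either direction, against 0% of all genes lower and 0.0071% higher. Without CTR replicate 2, edgeR again called 0 of 43, against 0% of all 14216 genes lower and 0.00703% higher. At an unadjusted p under 0.05, 8 of 43 (18.6%) were then lower and 0 higher, against 5.68% and 2.64% of all genes, and all 8 were among the 12. The log2 fold change was then negative for 34 of 43, against 48% of all genes. The groups then did not overlap in 16 lower and 2 higher genes, against 13.7% and 11.7% of all genes, and the median log2 fold change was -0.22.

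**Figure D1:**
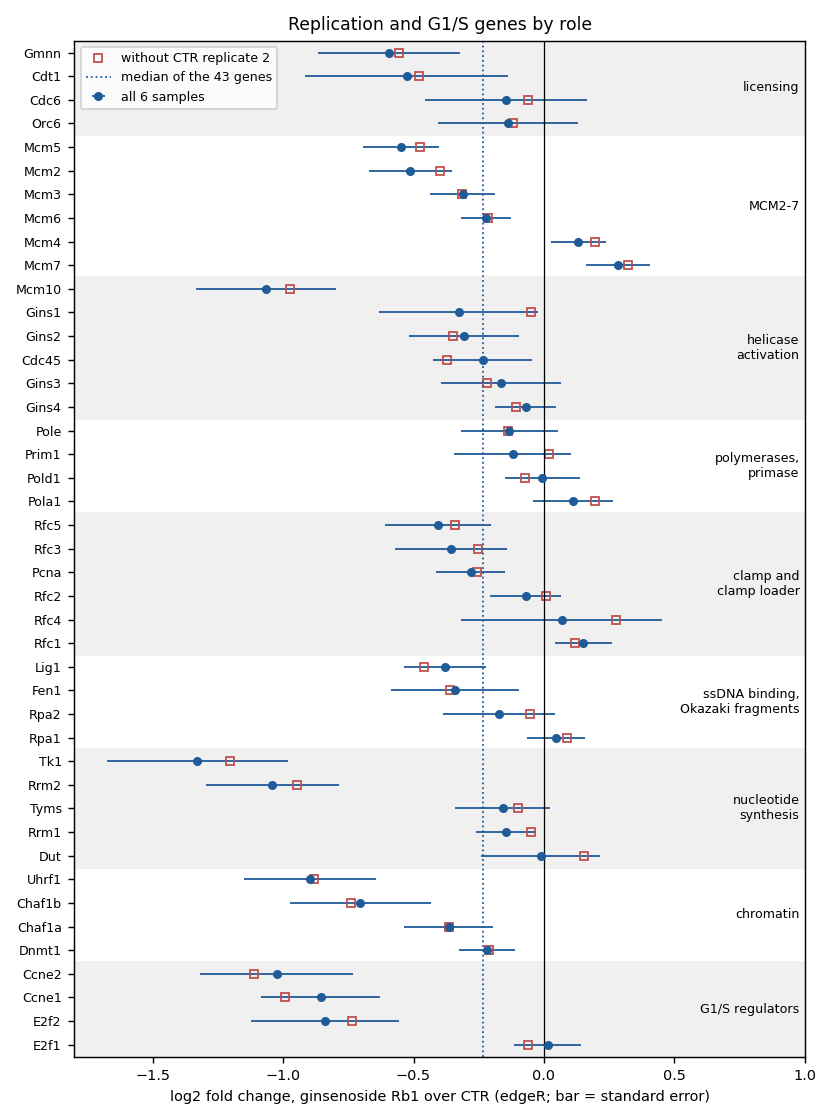
Log2 fold change, Rb1 over CTR, of the 43 tested genes by role (filled points, edgeR fit, all 6 samples; bars are standard errors) and without CTR replicate 2 (open squares); the dotted line is the median of the 43. G1/S regulators other than E2f1, Tk1, Rrm2, Mcm10 and Uhrf1 lie farthest to the left, and Mcm7 and Mcm4 lie to the right of 0, none past the adjusted threshold.

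Licensing genes load the helicase at origins. Gmnn encodes geminin, the inhibitor of Cdt1, and was at 4.69, 2.71 and 4.52 scaled CPM in Rb1 samples, against 7.08, 6.31 and 4.69 in CTR samples (log2 fold change -0.59 ± 0.27, edgeR adjusted p = 0.471). Cdt1, the loader itself, was at 3.27, 3.39 and 2.73 scaled CPM in Rb1 samples, against 6.54, 4.79 and 2.17 in CTR samples (-0.53 ± 0.39, edgeR adjusted p = 0.67). Both genes were higher in CTR replicates 1 and 2 than in any Rb1 sample, while CTR replicate 3 lay within or below the Rb1 range, so the groups overlapped. Orc6, an ORC subunit, was at 19.99, 10.3 and 14.3 scaled CPM in Rb1 samples and 19.5, 16.9 and 12.9 in CTR samples, a spread within each group wider than the difference between them. Cdc6, which helps ORC load the helicase, was low, at 0.159 ± 0.0531 FPKM in Rb1 samples and 0.181 ± 0.0235 FPKM in CTR samples (SD, n = 3 each), with a log2 fold change of -0.15. Orc1, the largest ORC subunit, had 7, 8 and 0 reads in Rb1 samples and 7, 11 and 3 in CTR samples and did not pass the filter on low counts. The median over the 4 tested licensing genes was -0.34 (-0.30 without CTR replicate 2), and 0 of the 4 reached an unadjusted p under 0.05.

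The 6 subunits of the MCM2-7 ring, which work as 1 complex of equal parts, did not lie on the same side of 0. Mcm5 was at 10.4, 9.35 and 11.3 scaled CPM in Rb1 samples, against 15.4, 16.7 and 13.4 in CTR samples (-0.55 ± 0.15, edgeR adjusted p = 0.258). Mcm2 was at 9.57, 9.83 and 9.76 scaled CPM in Rb1 samples, against 14.3, 16.0 and 11.3 in CTR samples (-0.51 ± 0.16, edgeR adjusted p = 0.309). Mcm3 was at 11.4, 12.3 and 13.6 scaled CPM in Rb1 samples, against 14.95, 15.4 and 16.0 in CTR samples (-0.31 ± 0.13, edgeR adjusted p = 0.422). All Rb1 samples lay below all CTR samples for these 3 genes, and the same held for Mcm6, at 22.3, 22.8 and 21.2 scaled CPM in Rb1 samples and 25.7, 26.1 and 25.6 in CTR samples (-0.22 ± 0.10, edgeR adjusted p = 0.442).

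Mcm7 lay the other way, at 20.04, 23.7 and 19.8 scaled CPM in Rb1 samples, against 17.5, 18.3 and 16.4 in CTR samples (0.28 ± 0.12, edgeR adjusted p = 0.444; 0.32 without CTR replicate 2). Mcm4 was at 24.6, 23.3 and 23.9 scaled CPM in Rb1 samples and 21.0, 23.7 and 20.8 in CTR samples (0.13 ± 0.11, edgeR adjusted p = 0.698), and its groups overlapped only through CTR replicate 2. The exons of Mcm7 share positions with Ap4m1 and Cops6 on the opposite strand and with Mir25 and Mir93 on its own. Ap4m1 and Cops6 had log2 fold changes of 0.15 and -0.01 (edgeR), and the part of shared reads in the Mcm7 value was not tested. All Rb1 samples of Mcm7 lay above all CTR samples. Its promoter window also holds E2F letters, TTTCCCGC and TTTCGCGC, and their part in its level was not tested.

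Levels of the subunits can be set against each other on the FPKM scale, which divides by gene length. The summed FPKM of Mcm2 to Mcm7 was 19.1, 17.7 and 17.7 in Rb1 samples and 20.6, 21.0 and 18.4 in CTR samples, with overlapping groups. Of that sum Mcm5 made up 10.4%, 9.24% and 11.2% in Rb1 samples, against 14.5%, 14.6% and 13.1% in CTR samples. Mcm2 made up 5.84%, 5.92% and 5.92% in Rb1 samples, against 8.17%, 8.53% and 6.77% in CTR samples. Mcm7 made up 16.1%, 18.9% and 15.9% in Rb1 samples, against 13.3%, 12.9% and 12.9% in CTR samples, and Mcm4 37.4%, 34.9% and 36.2% in Rb1 samples, against 30.0%, 31.6% and 31.0% in CTR samples. Within each library, therefore, Mcm2, Mcm5 and also Mcm6 took a smaller share and Mcm4 and Mcm7 a larger share of MCM transcripts in every Rb1 sample than in any CTR sample, while the shares of Mcm3 overlapped. The ratio of Mcm5 to Mcm7 FPKM was 0.646, 0.490 and 0.708 in Rb1 samples, against 1.09, 1.14 and 1.01 in CTR samples. These shares and ratios do not depend on scaling between libraries. The shares within a library have a fixed total, so a smaller share of some subunits raises the shares of others. The scaled CPM of Mcm4 itself overlapped between groups. Both shares and ratios were chosen after the single-gene values were seen and carry no test.

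**Figure D2:**
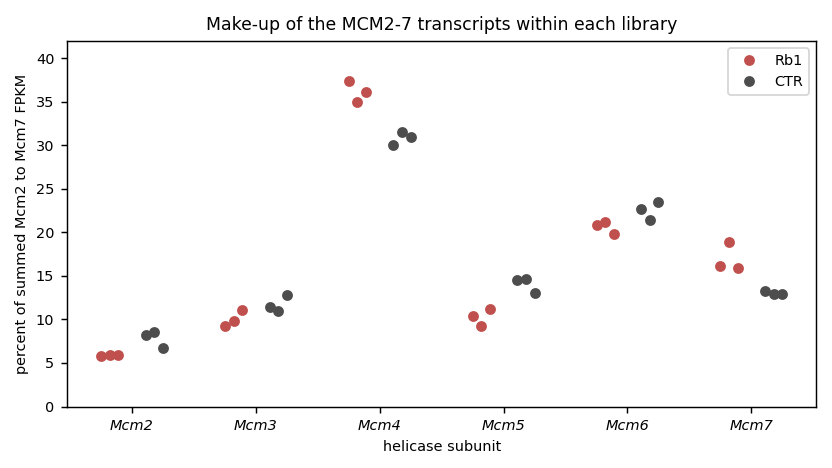
Share of each subunit in the summed FPKM of Mcm2 to Mcm7, in percent, with 1 point per library (Rb1 left, CTR right of each pair). Mcm4 and Mcm7 points of Rb1 libraries lie above those of CTR libraries, Mcm2, Mcm5 and Mcm6 points lie below them, and Mcm3 points overlap.

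Among the factors that switch the helicase on, Mcm10, a scaffold that binds the activated helicase, differed most. It was at 1.56, 1.42 and 1.02 scaled CPM in Rb1 samples, against 2.82, 3.13 and 2.42 in CTR samples (-1.07 ± 0.27, edgeR adjusted p = 0.240; -0.97 without CTR replicate 2), with no overlap between groups. Cdc45 was at 7.20, 6.71 and 8.56 scaled CPM in Rb1 samples and 9.95, 7.07 and 9.47 in CTR samples (-0.23 ± 0.19, edgeR adjusted p = 0.701). Gins2, 1 of the 4 GINS subunits, was at 4.26, 3.25 and 5.07 scaled CPM in Rb1 samples and 5.30, 4.91 and 5.44 in CTR samples (-0.31 ± 0.21, edgeR adjusted p = 0.638). Both had overlapping groups. The remaining GINS genes had log2 fold changes of -0.33 (Gins1), -0.17 (Gins3) and -0.07 (Gins4). For Gins1 the difference came from CTR replicate 2, and the log2 fold change was -0.05 without it. Gins4 had the highest level of the 44 genes per length, 19.9 ± 2.19 FPKM in Rb1 samples and 21.5 ± 1.12 FPKM in CTR samples, while Gins1, Gins2 and Gins3, its partners in the same tetramer, lay between 0.800 and 1.15 FPKM in either group. The median of the 6 genes was -0.27 (-0.28 without CTR replicate 2).

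Polymerase genes were close to level. Pola1, the catalytic subunit of polymerase alpha, was at 16.6, 19.5 and 14.5 scaled CPM in Rb1 samples and 14.5, 17.4 and 14.97 in CTR samples (0.11 ± 0.15, edgeR adjusted p = 0.841). Pole, the catalytic subunit of polymerase epsilon, was at 11.5, 7.999 and 7.92 scaled CPM in Rb1 samples and 9.61, 9.91 and 10.5 in CTR samples (-0.13 ± 0.19, edgeR adjusted p = 0.842). Prim1, the primase subunit that makes the RNA primer, was at 3.36, 3.32 and 3.32 scaled CPM in Rb1 samples and 3.81, 4.28 and 2.77 in CTR samples (-0.12 ± 0.22, edgeR adjusted p = 0.888). Each of these genes overlapped between groups, and Pold1, of polymerase delta, had a log2 fold change of -0.01. The median of the 4 was -0.06 (-0.03 without CTR replicate 2).

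Pcna, the sliding clamp and a common mark of S-phase cells, was at 27.1, 24.0 and 28.5 scaled CPM in Rb1 samples, against 35.6, 33.3 and 27.8 in CTR samples (-0.28 ± 0.13, edgeR adjusted p = 0.482). CTR replicate 3 lay inside the Rb1 range. Its level was 7.46 ± 0.812 FPKM in Rb1 samples and 9.35 ± 1.47 FPKM in CTR samples, and it has annotated pseudogene copies, so its reads may be shared. Of the clamp loader, Rfc5 was at 6.06, 4.07 and 4.77 scaled CPM in Rb1 samples and 6.83, 7.16 and 5.80 in CTR samples (-0.41 ± 0.20, edgeR adjusted p = 0.511). Rfc3 was at 6.54, 4.68 and 5.07 scaled CPM in Rb1 samples and 7.43, 7.88 and 5.54 in CTR samples (-0.35 ± 0.21, edgeR adjusted p = 0.595). In both, Rb1 replicate 1 overlapped with CTR replicate 3. Rfc1, the large subunit, was at 70.4, 83.7 and 79.6 scaled CPM in Rb1 samples and 66.4, 67.0 and 77.0 in CTR samples (0.15 ± 0.11, edgeR adjusted p = 0.655). Rfc4 was at 1.94, 2.51 and 2.002 scaled CPM in Rb1 samples and 2.53, 2.58 and 1.01 in CTR samples (0.07 ± 0.39, edgeR adjusted p = 0.971), and its direction depended on the sample: the log2 fold change was -0.26 without CTR replicate 3. Rfc2 had a log2 fold change of -0.07. It shares exon positions with Lat2 on the opposite strand, an adaptor of leukocyte signalling, which had a log2 fold change of -1.39 (edgeR unadjusted p = 0.00219) and a level of 1.01 FPKM in Rb1 samples and 2.76 FPKM in CTR samples. The clamp and loader median was -0.18 (-0.12 without CTR replicate 2).

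Lig1, the ligase that joins Okazaki fragments, was at 9.85, 7.80 and 8.95 scaled CPM in Rb1 samples, against 12.6, 10.2 and 11.8 in CTR samples (-0.38 ± 0.16, edgeR adjusted p = 0.426; -0.46 without CTR replicate 2), and its groups did not overlap. Fen1, the flap endonuclease, was at 8.95, 4.88 and 6.35 scaled CPM in Rb1 samples and 9.75, 8.30 and 7.61 in CTR samples (-0.34 ± 0.25, edgeR adjusted p = 0.655). Rpa2, a subunit of the single-strand binding complex RPA, was at 9.90, 6.24 and 9.41 scaled CPM in Rb1 samples and 9.06, 11.1 and 8.67 in CTR samples (-0.17 ± 0.22, edgeR adjusted p = 0.822). Fen1 and Rpa2 were lowest in Rb1 replicate 2 and overlapped between groups. Rpa1, the large RPA subunit, which also serves in repair, was at 52.2, 45.6 and 42.8 scaled CPM in Rb1 samples and 45.4, 48.1 and 42.7 in CTR samples (0.05 ± 0.11, edgeR adjusted p = 0.915). The median of the 4 was -0.26 (-0.21 without CTR replicate 2).

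Nucleotide synthesis held the largest fold change of the 43, that of Tk1, and one near 0. Tk1, cytosolic thymidine kinase of the salvage pathway, was at 1.56, 0.949 and 1.49 scaled CPM in Rb1 samples, against 4.11, 3.94 and 2.12 in CTR samples (-1.33 ± 0.35, edgeR adjusted p = 0.254; -1.20 without CTR replicate 2). Rrm2, the S-phase subunit of ribonucleotide reductase, was at 3.17, 2.64 and 3.83 scaled CPM in Rb1 samples, against 7.67, 7.50 and 4.79 in CTR samples (-1.04 ± 0.26, edgeR adjusted p = 0.232; -0.95 without CTR replicate 2). Neither gene overlapped between groups, and in both CTR replicate 3 was the lowest control. Rrm1, the partner subunit, which is held more evenly through the cell cycle, was at 28.0, 29.0 and 29.1 scaled CPM in Rb1 samples and 29.1, 35.9 and 30.3 in CTR samples (-0.15 ± 0.12, edgeR adjusted p = 0.691). The ratio of Rrm2 to Rrm1 FPKM within a library was 0.383, 0.308 and 0.446 in Rb1 samples, against 0.893, 0.707 and 0.535 in CTR samples, with no overlap; it was chosen after the values were seen and has no test. Tyms, thymidylate synthase, and Dut, dUTPase, which feed the other route to thymidine nucleotides, had log2 fold changes of -0.16 and -0.01. Tk1 shares exon positions with Afmid on the opposite strand, which had a log2 fold change of -0.35 at 0.373 FPKM in Rb1 samples and 0.491 FPKM in CTR samples. The median of the 5 genes was -0.16 (-0.10 without CTR replicate 2).

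Chromatin genes that act behind the fork were all lower in mean. Uhrf1, which recruits the maintenance methyltransferase to hemimethylated DNA, was at 3.74, 3.66 and 5.88 scaled CPM in Rb1 samples, against 9.70, 8.43 and 6.70 in CTR samples (-0.90 ± 0.25, edgeR adjusted p = 0.275). Chaf1b, a subunit of the histone chaperone CAF-1, was at 2.04, 1.42 and 1.45 scaled CPM in Rb1 samples, against 3.22, 2.54 and 2.27 in CTR samples (-0.70 ± 0.27, edgeR adjusted p = 0.402). Chaf1a, the large CAF-1 subunit, was at 8.71, 7.59 and 7.37 scaled CPM in Rb1 samples and 11.7, 10.2 and 8.57 in CTR samples (-0.37 ± 0.17, edgeR adjusted p = 0.475), and overlapped between groups, as Uhrf1 and Chaf1b did not. Dnmt1, the methyltransferase, had a log2 fold change of -0.22 ± 0.11 (edgeR adjusted p = 0.497), with all Rb1 samples below all CTR samples. The gap was narrow: relative to the gene's mean log2 level, Rb1 replicate 1 was at -0.074 and CTR replicate 3 at -0.055. Of the 4 chromatin genes 3 had Rb1 below CTR throughout, against 9.74% of all genes. With library totals in place of TMM scaling 2 of the 4 did, against 10.5% of all genes. The median of the 4 was -0.53 (-0.55 without CTR replicate 2).

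The 4 G1/S regulators had the lowest median of the 9 roles, -0.85 (-0.86 without CTR replicate 2). Ccne1 encodes cyclin E1, which activates CDK2 at S-phase entry, and was at 4.03, 3.25 and 3.71 scaled CPM in Rb1 samples, against 8.52, 5.34 and 6.10 in CTR samples (-0.86 ± 0.23, edgeR adjusted p = 0.258; -0.99 without CTR replicate 2). Ccne2, cyclin E2, was at 4.03, 2.37 and 3.66 scaled CPM in Rb1 samples, against 9.21, 6.01 and 5.39 in CTR samples (-1.02 ± 0.29, edgeR adjusted p = 0.280; -1.11 without CTR replicate 2). E2f2, an activating E2F, was at 2.42, 2.03 and 1.66 scaled CPM in Rb1 samples, against 4.21, 4.15 and 2.57 in CTR samples (-0.84 ± 0.28, edgeR adjusted p = 0.337; -0.73 without CTR replicate 2). In all 3 the Rb1 samples lay below the CTR samples, for E2f2 by a narrow gap to CTR replicate 3. E2f1, another activating E2F, was at 19.6, 18.8 and 20.02 scaled CPM in Rb1 samples and 18.7, 17.2 and 22.0 in CTR samples (0.01 ± 0.13, edgeR adjusted p = 0.983). On the FPKM scale E2f1 was at 4.10 ± 0.263 in Rb1 samples and 4.17 ± 0.464 in CTR samples, and E2f2 at 0.413 ± 0.0960 in Rb1 samples and 0.759 ± 0.212 in CTR samples. Ccne2 shares exon positions with Ints8 on the opposite strand, which had a log2 fold change of 0.22, at 4.74 FPKM in Rb1 samples and 4.17 FPKM in CTR samples.

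**Figure D3:**
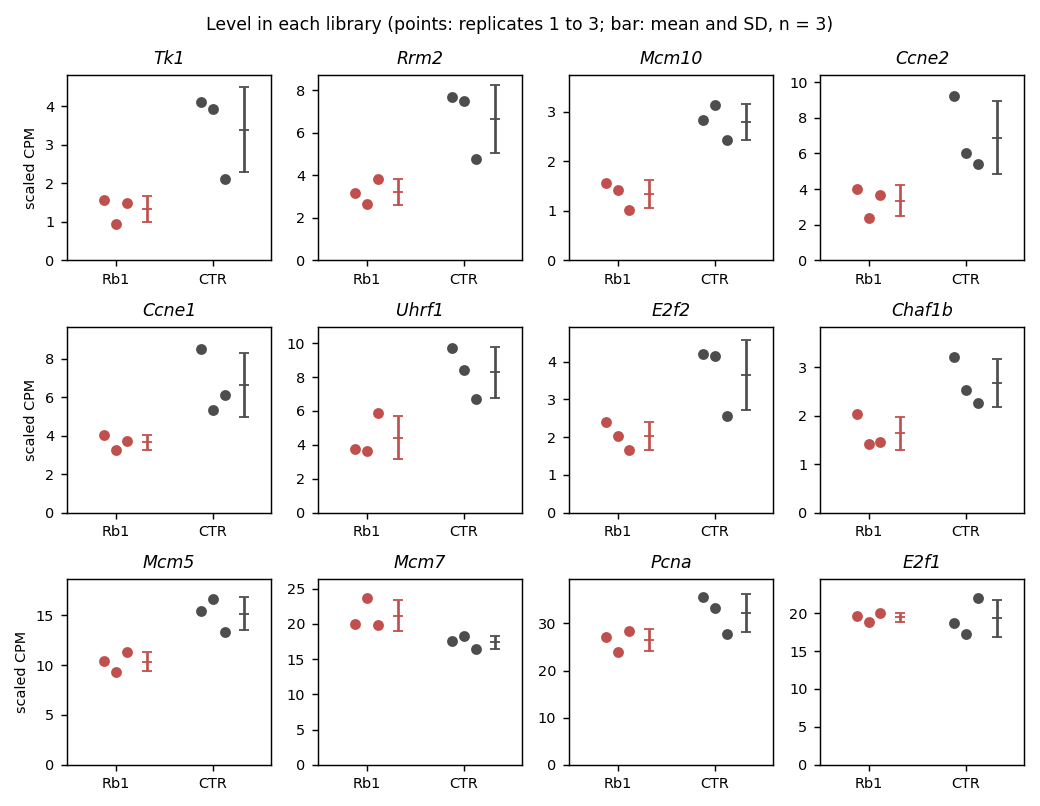
Scaled CPM of genes in each library for 12 genes (Rb1 left, CTR right; points are replicates 1 to 3, bars are mean and SD). For Tk1, Rrm2, Mcm10, Ccne1 and Ccne2 all Rb1 points lie below all CTR points, Mcm7 points of Rb1 lie above, and Pcna and E2f1 points overlap.

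The genes also differed between samples of the same group. Rb1 replicate 2 was the lowest of all 6 samples for 19 genes and Rb1 replicate 3 for 11, while CTR replicate 1 was the highest for 17 and CTR replicate 2 for 15. CTR replicate 3 was the lowest control for 32 of the 44 genes. Median deviations from each gene's mean log2 level were -0.03, -0.24 and -0.15 in Rb1 replicates 1, 2 and 3, and 0.27, 0.19 and -0.03 in CTR replicates 1, 2 and 3. Rb1 replicate 1 and CTR replicate 3 were thus alike in the median. Without CTR replicate 3 the groups did not overlap in 24 lower and 3 higher genes, against 16.7% and 15% of all genes. DESeq2 then called 6 of the 43 lower, against 3.42% of all genes, and 0 higher, against 1.6%. The 6 were Mcm2, Mcm5, Rrm2, Tk1, Uhrf1 and Ccne2. By edgeR no gene of the 43 was called when any 1 sample was left out.

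**Figure D4:**
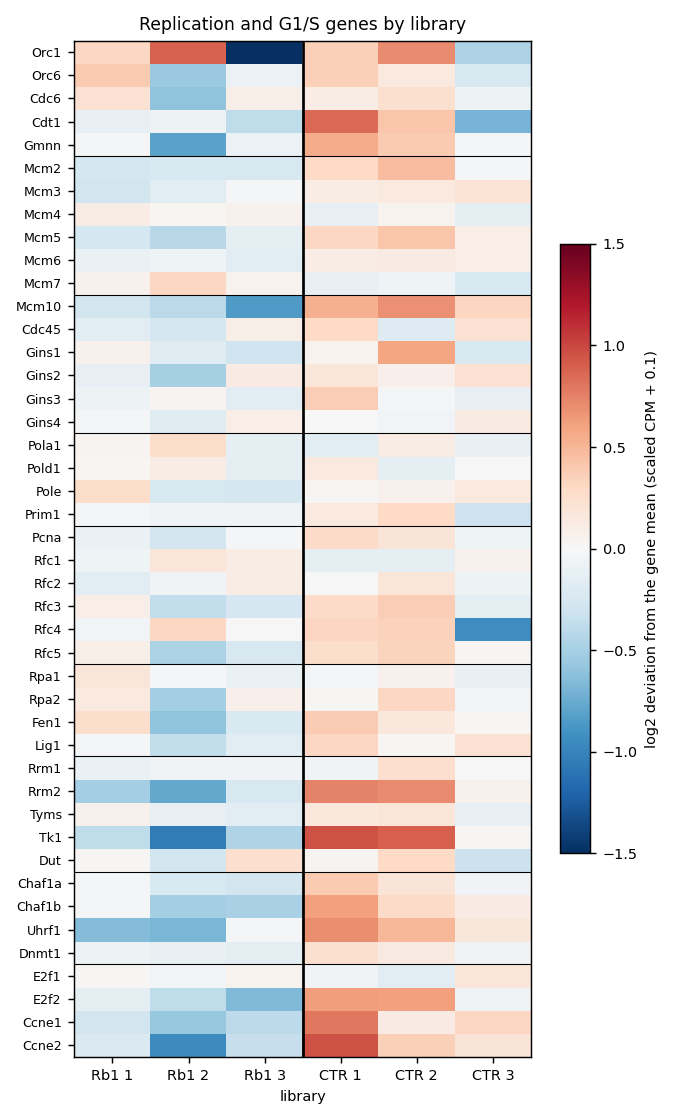
Log2 deviation of each gene from its own mean over the 6 libraries, genes in rows by role and libraries in columns (Rb1 left, CTR right). Among the darkest negative cells are Tk1 and Ccne2 in Rb1 replicate 2, Orc1 in Rb1 replicate 3 (0 reads) and Rfc4 in CTR replicate 3, and most cells of CTR replicates 1 and 2 are positive.

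Level and difference were set side by side as well. The 12 lower at an unadjusted p under 0.05 had mean CTR levels between 0.264 and 2.82 FPKM and log2 fold changes between -1.33 and -0.31. The other 31 had mean CTR levels between 0.181 and 21.5 FPKM and log2 fold changes between -0.59 and 0.28. Across the 43 tested genes, the mean log2 level (FPKM + 0.1, over the 6 samples) and the log2 fold change had a Pearson r of 0.517 and a Spearman rho of 0.478, as a description over genes that share the same 6 libraries. In sum the 44 genes gave 554, 523 and 541 scaled CPM in Rb1 samples and 617, 612 and 562 in CTR samples, a ratio of means of 0.904. By E2F letters, the 14 tested genes with a match had a median log2 fold change of -0.27, with 12 negative, and the 21 with a window but no match had a median of -0.23, with 17 negative. Of the 12 lower genes 11 had a window, and 5 of these held a match. The 15 genes that share exon positions with another gene had a median of -0.27 over those tested, and the others -0.22.

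**Figure D5:**
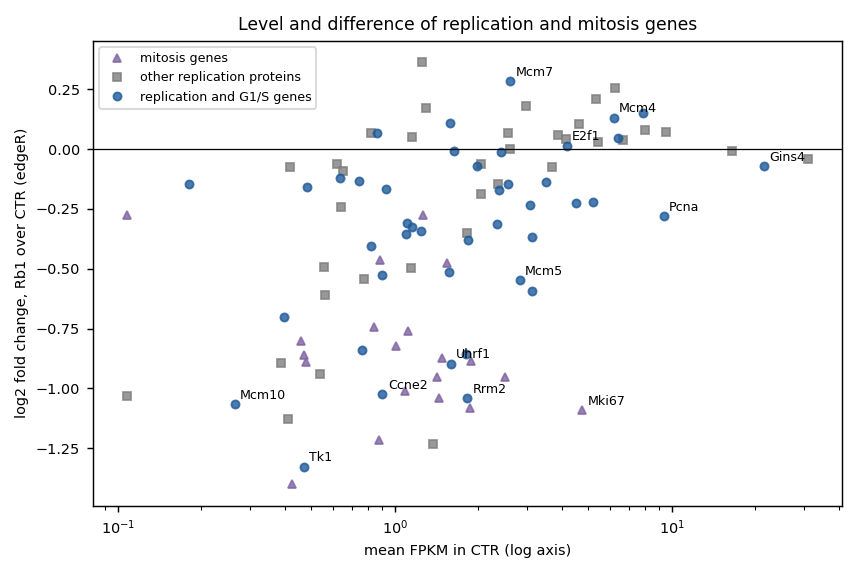
Mean FPKM in CTR samples (log axis) against the log2 fold change, Rb1 over CTR (edgeR), with 1 point per tested gene; circles are the replication and G1/S genes, squares other replication proteins and triangles mitosis genes. The 12 lower circles lie between 0.264 and 2.82 FPKM, Gins4, the most abundant circle, lies near 0, and all triangles lie below 0.

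Other genes of the pathway were read in the same fit. Of 36 tested replication proteins outside the 44, 0 were called by edgeR, limma-voom or DESeq2. At an unadjusted p under 0.05 by edgeR, 7 (19.4%) were lower and 0 higher, against 7.54% and 4.01% of all genes. The median log2 fold change of the 36 was -0.05 (-0.04 without CTR replicate 2). Those with the smallest p were Dna2, a nuclease and helicase of Okazaki processing (-0.94 ± 0.26, edgeR adjusted p = 0.264), Ticrr, an initiation factor (-1.03 ± 0.29, edgeR adjusted p = 0.269) and Clspn, a fork and checkpoint protein (-1.13 ± 0.32, edgeR adjusted p = 0.276). Of 24 pocket proteins, E2F partners and G1 cyclins, 0 were called by edgeR or limma-voom. DESeq2 called 1 (4.17%) lower, against 2.18% of all genes. At an unadjusted p under 0.05 by edgeR, 5 (20.8%) were lower and 1 (4.17%) higher, against 7.54% and 4.01% of all genes. The median of the 24 was -0.07 (-0.03 without CTR replicate 2). E2f8, a repressive E2F (-1.06 ± 0.25, edgeR adjusted p = 0.224), Cdk6, a G1 kinase (-0.65 ± 0.16, edgeR adjusted p = 0.230), and Skp2, which targets the CDK inhibitor p27 for degradation (-0.88 ± 0.26, edgeR adjusted p = 0.286), had the smallest p. Cdk6 passed in DESeq2 (adjusted p = 0.0312) but not without CTR replicate 2 (DESeq2 adjusted p = 0.268). The retinoblastoma gene, named because it shares its symbol with the compound, had a log2 fold change of 0.19 ± 0.10 (edgeR adjusted p = 0.539).

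The 20 mitosis genes all had a negative log2 fold change, against 48.7% of all genes. Of the 20, 15 (75%) were lower at an unadjusted p under 0.05 by edgeR, against 7.54% of all genes. The median was -0.88 (-0.79 without CTR replicate 2, with 19 negative). By edgeR and limma-voom 0 of the 20 were called, and by DESeq2 8 (40%) were called lower, against 2.18% of all genes. Without CTR replicate 2 DESeq2 called 2 (10%) lower, against 1.13% of all genes. Mki67, the proliferation marker, was at 21.8, 19.6 and 26.5 scaled CPM in Rb1 samples, against 50.3, 52.3 and 42.1 in CTR samples (-1.09 ± 0.15, edgeR adjusted p = 0.119), and DESeq2 called it with all samples (adjusted p = 8.21e-07) and without CTR replicate 2 (adjusted p = 0.000506). Top2a, topoisomerase II alpha (-0.89 ± 0.16, edgeR adjusted p = 0.174), and Tpx2, a spindle factor (-0.95 ± 0.19, edgeR adjusted p = 0.184), followed. The 20 genes summed to 86.3, 80.7 and 95.9 scaled CPM in Rb1 samples, against 175, 184 and 137 in CTR samples, a ratio of means of 0.530. The difference between the mitosis genes and the 44 was not tested.

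Markers of other cell types were read in the same samples. The tissue was sequenced in bulk, so fewer cells of a type and less RNA per cell cannot be told apart. All 10 macrophage markers had negative log2 fold changes, and their median was -0.84 (-0.70 without CTR replicate 2). At an unadjusted p under 0.05 by edgeR, 8 (80%) of these markers were lower, against 7.54% of all genes. By edgeR and limma-voom 0 of the 10 were called, and by DESeq2 5 (50%) were called lower, against 2.18% of all genes. Without CTR replicate 2 DESeq2 called 3 (30%) lower, against 1.13% of all genes. Without Rb1 replicate 1 the median of the 10 was -0.59 and 9 were negative, against 49.8% of all genes. In that setting 6 were lower at an unadjusted p under 0.05 by edgeR, against 7.44% of all genes. The sum of the 10 markers was 949, 1540 and 1424 scaled CPM in Rb1 samples, against 1769, 2103 and 1741 in CTR samples. Adgre1, which encodes F4/80, was at 47.0, 83.6 and 67.4 scaled CPM in Rb1 samples, against 96.7, 151 and 110 in CTR samples, and Cd68 was at 69.0, 90.2 and 98.4 in Rb1 samples, against 174, 174 and 135 in CTR samples. The macrophage sum and the sum of the 44 genes were each lower in every Rb1 sample than in any CTR sample after TMM scaling. In CPM without TMM scaling the macrophage sum kept this order. The sum of the 44 genes then overlapped between groups, at 578 CPM in Rb1 replicate 1 against 552 in CTR replicate 3. The lowest sample was Rb1 replicate 1 for the macrophage sum and Rb1 replicate 2 for the 44 genes. The part of macrophages in the replication values was not tested.

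The 8 T and NK cell genes summed to 19.0, 7.52 and 13.5 scaled CPM in Rb1 samples and 20.6, 34.9 and 11.7 in CTR samples, with a median log2 fold change of -0.73 that was -0.30 without CTR replicate 2; Cd3e reached at most 6.10 scaled CPM, in CTR replicate 2, and Cd3d was at 0 in Rb1 replicate 2. B cell genes summed to 1.97 to 5.59 scaled CPM in Rb1 samples and 2.57 to 4.45 in CTR samples, and Ms4a1 was at 0 in Rb1 replicate 2. The 5 adipose progenitor genes summed to 349 to 911 scaled CPM in Rb1 samples and 350 to 695 in CTR samples, with Pdgfra at 130 to 244 in Rb1 samples and 140 to 183 in CTR samples, and Dpp4 at 40.1 to 130 in Rb1 samples and 49.8 to 101 in CTR samples. The 5 endothelial genes summed to 1489 to 2364 scaled CPM in Rb1 samples and 1390 to 1563 in CTR samples, with Pecam1 at 356 to 596 in Rb1 samples and 356 to 392 in CTR samples, and Cdh5 at 535 to 905 in Rb1 samples and 531 to 641 in CTR samples. All 5 had a positive log2 fold change, with a median of 0.27 (0.12 without Rb1 replicate 1). At an unadjusted p under 0.05 by edgeR, 2 were higher, against 4.01% of all genes, and 0 passed after adjustment. In 2 all Rb1 samples lay above all CTR samples, against 7.73% of all genes. Of the 7 adipocyte genes 4 had a positive and 3 a negative log2 fold change, with a median of 0.12. At an unadjusted p under 0.05 by edgeR, 1 was higher and 0 lower, against 4.01% and 7.54% of all genes. Adipoq was at 2122 to 2523 scaled CPM in Rb1 samples and 2292 to 2720 in CTR samples. Lep was at 2573 to 4095 scaled CPM in Rb1 samples and 3378 to 4903 in CTR samples. Mesothelial genes (Msln and Upk3b among them) summed to 0.339 to 0.639 scaled CPM in Rb1 samples and 0.248 to 0.504 in CTR samples. Epithelial genes (Epcam and Krt8 among them) summed to 0.746 to 2.18 scaled CPM in Rb1 samples and 1.19 to 2.20 in CTR samples, with Krt14 at 0 in all 6. Of the muscle genes, Acta1 was at 25.9, 13.1 and 48.9 scaled CPM in Rb1 samples and 90.5, 4114 and 81.8 in CTR samples, and Myh1 at 2.58 to 58.5 in Rb1 samples and 22.0 to 129 in CTR samples. The part of these cells in the replication values was not tested.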

How the data were processed

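White adipose tissue of 3 Rb1 and 3 CTR samples was profiled by RNA sequencing. Total RNA was column-purified, per the labels' protocols, and CASAVA 1.8, TopHat2 2.0.6 and mm10 are named, per the submitters' processing notes. For the counting tool, annotation release and strand setting the sources used here give nothing, so a read in exons shared by genes of both strands could belong to either. The deposited counts are whole reads per Ensembl gene, per the file headers, with no normalization. The deposited FPKM values, made by the authors, equalled count over length and column total in all 13169 genes checked, to within 0.00984%. Of 22040 identifiers 21933 were paired with a symbol. Gene positions and exon overlaps came from GENCODE M21 on GRCm38, and promoters from RefSeq.

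Counts were tested with edgeR 4.0.16 in R 4.3.3 (TMM, minimum count 10 and minimum total 15, quasi-likelihood test, no covariates) on 14093 genes, with Benjamini-Hochberg adjustment over all of them and a threshold of 0.05. The biological coefficient of variation was 24.8%. FPKM served to give levels, shares and ratios within a library, and the level set against the fold change, and it carried no test. DESeq2 1.42.0, limma-voom (limma 3.58.1), other scalings and filters, the replicate number as a block, and leaving out each sample were alternatives. DESeq2 with each sample left out, and limma-voom without CTR replicate 2, were added after the data had been seen. The members and lists were chosen with earlier results of these data known. Values per sample are given for up to 3 genes of each role with the smallest p, Pcna, E2f1 and every gene with a positive fold change. Of other lists the 3 with the smallest p, and of marker lists the first 2, are named, except 1 marker gene that is not reported here; Lat2, Afmid and other exon neighbours are named for their position. Mcm6, Orc1, Krt14 and the retinoblastoma gene are given beside these.

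Whether replicates are separate mice is not stated, so a p-value reflects only how far these samples scatter, which may be technical. No pair agreed within sampling noise (chi-square per degree of freedom at least 30.4). Floors of 3 counts cover counting error only. Replicate numbers did not pair the samples. In counts simulated for this comparison, run on 13983 genes, edgeR found 37% of genes changed 2-fold and 95% of those changed 4-fold, and 6 of its 138 calls were false. DESeq2 found 65% and 98%, and 38 of its 201 calls were false. The changes were put only into genes above a minimum level, up or down at random, with no outlying library. Most replication genes differed by less than 2-fold, so these rates are not those of the replication genes.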

Additional observations from a re-analysis of the deposited data

How the results depend on the processing

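Over all genes edgeR called 0 lower and 1 higher, DESeq2 307 lower and 83 higher. Leaving out each sample gave 0 to 2 lower and 1 to 2 higher with edgeR, and with DESeq2 330, 232 and 189 lower (109, 86 and 53 higher) without Rb1 replicates 1, 2 and 3, and 254, 161 and 488 lower (41, 35 and 229 higher) without CTR replicates 1, 2 and 3. Of the replication genes edgeR called 0 lower, DESeq2 1 (Rrm2), and DESeq2 0 to 6 with each sample left out; the 1 call without Rb1 replicate 3 was Uhrf1. The lowest edgeR or limma-voom adjusted p of any replication gene was 0.134 over these settings. All Rb1 samples lay below all CTR samples in 14 genes, against 9.74% of all genes, and in 15 to 24 with each sample left out, against 12.8% to 16.7%. Fewer samples make such a separation easier, so this count could hardly fall and does not show stability. The count was highest without CTR replicate 3, which was the lowest control for 32 genes. With DESeq2 scaling it was 22 without Rb1 replicate 1 and 24 without CTR replicate 3, against 16.2% of all genes in both. Of 602 log2 fold changes under 14 alternative settings, 21 had the other sign, in 12 genes, and 31 genes kept 1 sign throughout.

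The replicate numbers did not pair the samples: the correlations of same-numbered samples were 0.14, -0.11 and 0.02, and not every sample correlated best with its own number. With the replicate number as a block, 0 replication genes were called, 11 were lower at an unadjusted p under 0.05 (12 without the block), against 6.93% of all genes, 36 were negative, against 49% of all genes, and the median was -0.23. Depth limits the genes near the floor, such as Orc1, with 36 reads over all samples.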
